A study of Mus musculus with 238 samples.

Results

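The FoxO factors and the regulators of mTOR were followed as 10 genes, taken by symbol from a table of read counts for 21076 genes: the FoxO factors Foxo1, Foxo3, Foxo4 and Foxo6, the sestrins Sesn1 and Sesn3, the kinase gene Mtor with its inhibitory subunit gene Deptor, and the translation repressors Eif4ebp1 and Eif4ebp2. The counts came from bulk RNA of 238 tissue samples of C57BL/6JN mice aged 19 months, up to 15 brain regions per animal and, in the diet experiment, liver. In the diet experiment 5 female mice under dietary restriction (labelled aDR in brain and DR in liver) were compared with 4 females fed ad libitum (AL), in 131 brain libraries and 9 liver libraries. In the plasma experiment 3 males given young mouse plasma (YMP) by retro-orbital injection were compared with 4 males given PBS by the same route, in 98 brain libraries. All mice were old, the labels name no engineered allele, and sex and experiment cannot be told apart. A library is 1 region of 1 mouse, and in such bulk tissue fewer cells of a type and less RNA per cell cannot be told apart.

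FoxO factors are forkhead transcription factors that insulin and growth factor signalling keeps out of the nucleus through phosphorylation by Akt; when that signalling is low they enter the nucleus and switch on genes for stress resistance, catabolism and, in liver, glucose production. mTOR is the kinase of complexes that promote protein synthesis and hold back autophagy when amino acids and growth factors are plentiful. Sestrins restrain mTOR complex 1 when amino acids are low, Deptor binds and inhibits mTOR, and 4E-BPs, which mTOR complex 1 phosphorylates, block cap-dependent translation by binding eIF4E. Much of this control acts on proteins through phosphorylation, which an RNA count does not record.

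In the GRCm38 assembly with the GENCODE M21 annotation, Foxo1 lies at chr3:52268336-52353221, Foxo3 at chr10:42181841-42276755, Foxo4 at chrX:101254528-101260873 and Foxo6 at chr4:120267079-120287349. Sesn1 lies at chr10:41809935-41908424 and Sesn3 at chr9:14275067-14333101. Mtor lies at chr4:148448611-148557683, Deptor at chr15:55112317-55259271, Eif4ebp1 at chr8:27260329-27276674 and Eif4ebp2 at chr10:61428491-61452661. The libraries do not mark strand, so reads from a gene that overlaps a member cannot be told apart from its own: Gm20402 and Gm38034 overlap Foxo1, 9930024M15Rik overlaps Sesn1, Angptl7 and 2 small nuclear RNA genes overlap Mtor, Gm9920 overlaps Deptor and Gm48086 overlaps Eif4ebp2. Values of these 5 members carry that uncertainty.

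Sesn1 is itself known as a gene that FoxO factors bind, and its start region is shown because, of the members with a start window in RefSeq, it alone had a match to the forkhead motif GTAAACA. RefSeq start windows of 300 bases, 250 before and 50 after the start in GRCm38.p6, were matched for 6 of the 10 members in 7 windows. The motif, searched on both strands, was in 1 of these 7 windows, and in 3.65% of all 32851 windows of that length. The stretch below runs along the + strand at chr10:41810586-41810612, within an exon annotated as UTR, and the capitals mark the motif, which here lies on the opposite strand and so reads as its reverse complement. Its first capital is base 23 counted from the start site. The match is a description of these letters and not a measured binding site.
Sesn1: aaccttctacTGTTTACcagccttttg

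Library totals ran from 0.606 M to 32.4 M counts (M for 1e6; median 8.44 M), and 6 libraries were under 2 M. The tissue labels were set against marker genes: summed hepatocyte markers were at 126629 to 182821 CPM in liver, and olfactory bulb markers had a median of 1435 CPM in the AL olfactory bulbs. CPM here is counts-per-million of a library's total after TMM scaling over all libraries. The corpus callosum and subventricular zone (SVZ) libraries also held striatal markers (Drd1, Drd2, Ppp1r1b, Adora2a), with medians of 2259 and 914 CPM in AL mice against 4271 CPM in the caudate putamen. In 3 pons libraries (AL mouse 68, aDR mouse 64, YMP mouse 77) summed hindbrain markers were at 3.93, 5.09 and 3.11 CPM, against 23.7 to 112 CPM in the other pons libraries. PBS mouse 84 stood apart from the other mice for several members, as described with Mtor below.

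All 10 members differed in level between brain regions in both control groups (adjusted p under 0.05 in edgeR's quasi-likelihood F test, Benjamini-Hochberg adjusted over all genes tested), as did 98.1% of the 15324 genes tested in AL mice and 96.1% of the 15415 tested in PBS mice. Foxo4 was no longer called in AL mice without mouse 66, nor in PBS mice without mouse 76, 80 or 84, and Mtor was no longer called in PBS mice without mouse 76 or 80. Apart from Foxo6, which was close to 0 in the cerebellum, the spread was widest for Foxo1, with an 11.2-fold gap between the highest and lowest regional mean in AL mice and an 8.67-fold gap in PBS mice. It was narrowest for Eif4ebp2, at 2.35-fold and 2.05-fold. Per kilobase of exon, the scale on which different genes can be set side by side, mean brain level in AL mice was highest for Sesn1 (23.3 CPM per kilobase), followed by Foxo1 (8.28), Deptor (5.22), Mtor (3.6), Eif4ebp2 (3.27), Sesn3 (3.23), Foxo3 (2.71), Eif4ebp1 (2.35), Foxo6 (2.33) and Foxo4 (0.161). Single regions were then tested against the mean of the other 14 with edgeR's quasi-likelihood test. In the olfactory bulb 6 of the 10 members (Foxo3, Foxo4, Sesn3, Mtor, Deptor, Eif4ebp2) were higher in AL mice, where 33.6% of all genes tested were, and the same 6 in PBS mice, where 32.4% were. In the medulla no member was higher, while 6 were lower in AL mice, where 30.4% of all genes were, and 7 in PBS mice, where 26.4% were.

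**Figure D1:**
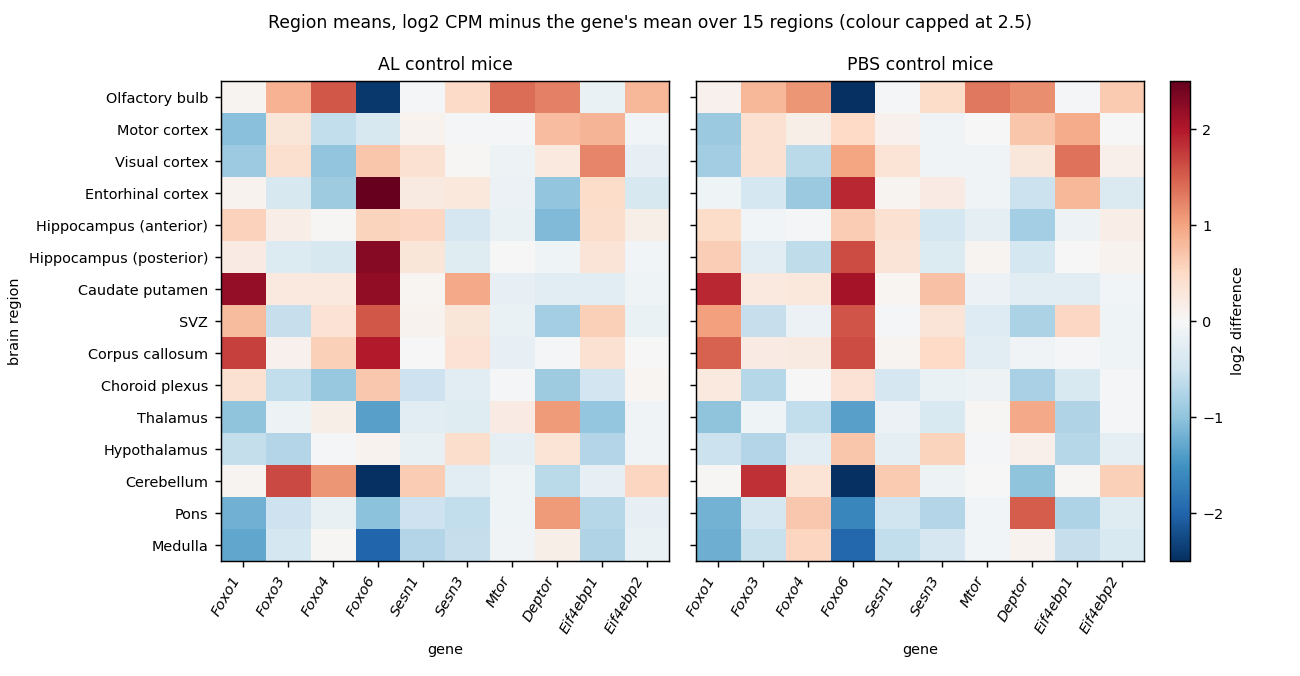
Mean level of each of the 10 members in each of 15 brain regions in AL females and PBS males, as log2 CPM minus the gene's own mean over regions; colour gives the difference in log2 units. Foxo1 stands highest in the caudate putamen, Foxo3 in the cerebellum, Mtor in the olfactory bulb and Eif4ebp1 in the visual cortex in both groups.

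Foxo1, the FoxO factor best known from insulin action in liver, was highest in the caudate putamen. Its values there were 283, 207, 285 and 221 CPM in the 4 AL mice (249 ± 40.8, SD, n = 4) and 204, 165, 221 and 248 CPM in the 4 PBS mice (209 ± 34.8, SD, n = 4), 2.33 and 2.0 above the other regions on the log2 scale. In AL mice 28.6% of genes were called higher in that region, and 23.2% in PBS mice. The corpus callosum followed at 179 ± 36.4 CPM in AL mice (n = 3) and the SVZ at 94.1 ± 23.3 CPM (n = 4), the same 2 regions that held striatal markers. In the SVZ the libraries with the most striatal marker RNA also had the most Foxo1: aDR mouse 64 with 2989 CPM of markers had 202 CPM of Foxo1, YMP mouse 77 with 2810 had 227 and PBS mouse 72 with 2849 had 177, while all other SVZ libraries had 747 to 2071 CPM of markers and 75.6 to 167 CPM of Foxo1. The part of striatal tissue in the Foxo1 level of those 2 regions was not tested. Foxo1 was lowest in the medulla, at 18.8, 21.9, 22.5 and 25.5 CPM in the AL mice, where no library reached the lowest caudate putamen library. The AL order from the fourth place on was anterior hippocampus (81.3 CPM), choroid plexus (70.8), posterior hippocampus (63.4), entorhinal cortex (58.0), cerebellum (57.6), olfactory bulb (57.1), hypothalamus (36.3), visual cortex (29.0), thalamus (27.1), motor cortex (26.7), pons (23.8) and medulla (22.2). Of the 14 neighbours in that order 12 overlapped, and the gaps were those below the corpus callosum and below the olfactory bulb.

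Foxo3, which in other tissues drives genes of autophagy and stem cell quiescence, was highest in the cerebellum. Its cerebellar values were 60.4, 59.8, 49.5 and 62.1 CPM in AL mice (57.9 ± 5.72, SD, n = 4) and 62.1, 69.6 and 92.6 CPM in PBS mice (74.7 ± 15.9, SD, n = 3), 1.74 and 1.93 above the other regions on the log2 scale (2.02 in PBS mice without mouse 84). No cerebellar library overlapped the next region, the olfactory bulb, at 33.5 ± 4.23 and 37.5 ± 3.02 CPM. In the cerebellum 32.6% of genes were called higher in AL mice and 29.7% in PBS mice. The other 13 regions ran from 24.4 CPM in the visual cortex to 11.1 CPM in the hypothalamus in AL mice, each overlapping the next.

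Foxo4 was near the limit of detection in brain. Its mean was 1.45 ± 0.634 CPM in the AL olfactory bulb and 1.52 ± 0.142 CPM in the PBS olfactory bulb (n = 4 each), its highest region in both groups. All other regions were between 0.248 and 1.06 CPM in AL mice, and all neighbouring regions overlapped. Foxo4 had the least alike regional profiles in the 2 control groups among the members (Pearson's r = 0.644 between the AL and PBS regional means on the log2 scale, n = 15 regions that share library depth), against 0.889 to 0.990 for the other 9.

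Foxo6, the FoxO factor known for its expression in neurons of the hippocampus and cortex, was highest in the entorhinal cortex in AL mice and in the caudate putamen in PBS mice. In the entorhinal cortex it was at 23.2, 30.0 and 7.85 CPM in AL mice and at 2.98, 12.6, 12.1 and 11 CPM in PBS mice, so the groups overlapped and the libraries of 1 group differed several-fold. In the caudate putamen it was at 12.3, 14.9, 15.0 and 12.3 CPM in AL mice and at 16.1, 12.5, 7.15 and 8.74 CPM in PBS mice. The posterior hippocampus, at 14.2 ± 16.9 CPM in AL mice, owed its mean to mouse 68 at 39.4 CPM. The same 5 regions (entorhinal cortex, posterior hippocampus, caudate putamen, corpus callosum, SVZ) were called higher in both control groups. At the other end, Foxo6 had 3 counts in total over the 4 AL cerebella, 3 of which were at 0, and 8 counts over the PBS cerebella.

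Sesn1, a sestrin that binds leucine, varied less over the brain than any of the FoxO factors, with a 2.59-fold gap between its highest and lowest regional mean in AL mice. It was highest in the cerebellum, at 139, 135, 129 and 155 CPM in AL mice (139 ± 11.1, SD, n = 4) and 151, 141 and 146 CPM in PBS mice (146 ± 5.01, SD, n = 3). It was lowest in the medulla, at 54.2, 52.5, 54.9 and 53.7 CPM in AL mice and at 53.5, 48.4, 64.7 and 73.0 CPM in PBS mice, and the 2 regions did not overlap in either group. The anterior hippocampus (128 CPM), visual cortex (117), posterior hippocampus (110) and entorhinal cortex (104) came after the cerebellum in AL mice. Sesn3, a sestrin known as a FoxO target, had another map: it was highest in the caudate putamen, at 107, 76.1, 97.1 and 82.5 CPM in AL mice and 73.8, 64.1, 87.4 and 117 CPM in PBS mice, and lowest in the pons, at 30.9 ± 4.33 and 30.6 ± 3.42 CPM. Sesn1 and Sesn3 lay at opposite ends for the anterior hippocampus, where Sesn1 was called higher and Sesn3 lower than the other regions in both control groups. Across the 15 regional means Sesn3 followed Foxo1 with r = 0.62 in AL and 0.595 in PBS mice, and Sesn1 followed Foxo3 with r = 0.603 and 0.668; these regions share depth and dissection.

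Mtor, the catalytic subunit of both mTOR complexes, was close to flat over the brain apart from the olfactory bulb. There it was at 84.8, 91.9, 93.0 and 94.2 CPM in AL mice (91.0 ± 4.22, SD, n = 4) and at 102, 108, 110 and 100 CPM in PBS mice (105 ± 4.76, SD, n = 4), 1.45 and 1.40 above the other regions on the log2 scale. The other 14 regional means lay between 29.7 and 39.9 CPM in AL mice and between 33.7 and 44.1 CPM in PBS mice, and no olfactory bulb library overlapped them. Without PBS mouse 84 the excess of the olfactory bulb was 1.72 in PBS mice. Eif4ebp2 shared that peak, at 31.0, 31.8, 32.2 and 35.9 CPM in the AL olfactory bulbs (32.8 ± 2.19, SD, n = 4), with the cerebellum next at 26.6 ± 3.03 CPM. All other regional means of Eif4ebp2 were between 14 and 20.4 CPM in AL mice. The regional means of Mtor and Eif4ebp2 correlated at r = 0.728 in AL and 0.600 in PBS mice, and those of Foxo3 and Eif4ebp2 at 0.716 and 0.824 (n = 15 regions). Mtor and Eif4ebp2 both peak in the olfactory bulb, so that region weighs heavily in their r. The PBS means include mouse 84, which was above all other libraries for Mtor in 14 regions, Foxo3 in 11 and Eif4ebp2 in 10.

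Deptor was high in the olfactory bulb (96.9 ± 3.64 CPM in AL and 98.9 ± 2.02 in PBS mice, n = 4 each), the pons, the thalamus (83.6 and 85.3 CPM) and the motor cortex (68.6 and 72.1 CPM), the same 4 regions called higher in both groups. In the pons it was at 104, 88.7, 27.2 and 117 CPM in the AL mice. The low value is that of mouse 68, whose pons library had few hindbrain markers, and without it the AL mean was 103 ± 14.4 CPM (SD, n = 3), against 84.4 ± 39.9 with it; the PBS pons libraries were at 137, 140 and 105 CPM. The aDR library of mouse 64 (31.5 CPM) and the YMP library of mouse 77 (46.1 CPM), the other 2 pons libraries low in hindbrain markers, were also the lowest of their groups for Deptor. The aDR mean was 78.7 ± 42.7 CPM (n = 5) and 90.5 ± 38.7 CPM without mouse 64 (n = 4). The library of aDR mouse 67 was also low in Deptor (48.7 CPM). Its hindbrain markers, at 23.7 CPM, were the lowest of the remaining pons libraries. Its 10 most abundant genes held 23.4% of its counts, against 5.72% to 7.12% in the other pons libraries. The lowest regions for Deptor were the anterior hippocampus in AL mice (18.7 ± 4.12 CPM) and the cerebellum in PBS mice (22.1 ± 1.75 CPM). Its map ran against that of Foxo1, with r = -0.514 in AL and -0.545 in PBS mice over the 15 regional means.

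Eif4ebp1, the 4E-BP best known from metabolic tissues, was low in brain and highest in the visual cortex, at 11.2, 10.7, 13 and 8.63 CPM in AL mice (10.9 ± 1.80, SD, n = 4) and 10.4, 11 and 12.8 CPM in PBS mice (11.4 ± 1.23, SD, n = 3), 1.29 and 1.45 above the other regions on the log2 scale. The motor cortex (8.43 and 8.52 CPM), entorhinal cortex and SVZ were also called higher in both groups, and the pons, hypothalamus, medulla and thalamus lower. In the thalamus it was at 1.67, 1.80, 3.72 and 2.38 CPM in AL mice, all below every visual cortex library. In the visual cortex 23.6% of genes were called higher in AL mice and 20.1% in PBS mice.

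For each member, the 2 other genes whose AL regional profile was most like it (Pearson's r over 15 regional means of log2 CPM, among 14192 genes, and 14193 for Foxo4) are given with the same r in PBS mice. For Foxo1 they were Nudt16l1 (0.939 in AL, 0.835 in PBS) and Trim11 (0.931, 0.837), and for Foxo3 Ppip5k1 (0.945, 0.889) and Rps6kb2 (0.934, 0.860). For Foxo4 they were Nipsnap2 (0.945, 0.606) and Mcm7 (0.911, 0.507), and for Foxo6 Thumpd1 (0.960, 0.930) and Cog7 (0.939, 0.913). For Sesn1 they were Zfp235 (0.930, 0.896) and Pde7a (0.918, 0.843), and for Sesn3 Rpgr (0.938, 0.906) and Pdzph1 (0.887, 0.746). Rps6kb2, which encodes an S6 kinase, is the one gene among these that belongs to a fixed mTOR pathway list. For Mtor they were Pcbp3 (0.968, 0.928) and Kcnk15 (0.964, 0.920), and for Deptor Ldhd (0.938, 0.840) and Cadm4 (0.859, 0.729). For Eif4ebp1 they were Pknox2 (0.904, 0.892) and Dtl (0.897, 0.845), and for Eif4ebp2 Hnrnpa2b1 (0.979, 0.881) and Kmt2d (0.959, 0.921). The r in AL mice was used to choose these genes and is not a test, and the PBS value was lower for each of them.

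Liver differed from brain in AL mice for all 10 members (edgeR's quasi-likelihood test, adjusted p under 0.05), where 38.7% of the 15876 genes tested were higher and 47.5% lower. The log2 differences are against the mean of the 15 brain regions on the log2 scale. Brain means printed in CPM are plain means of regional means, so they need not match. The 4E-BPs led: Eif4ebp1 was at 77.1 ± 9.09 CPM in liver (n = 4) against a brain mean of 5.16 CPM, 4.09 higher on the log2 scale, and Eif4ebp2 at 272 ± 43.3 against 18.9 CPM, 3.92 higher. Deptor, at 374, 450, 367 and 401 CPM in the 4 AL livers, was 3.36 higher than in brain, and Foxo4 at 5.56 ± 1.52 CPM was 3.44 higher. Foxo3 was 1.35 higher, Foxo1 0.72 higher and Mtor 0.35 higher than in brain, but each was below its highest brain region. TMM factors ran from 0.476 to 1.13 over all libraries and were low in liver, which raises its CPM. The Foxo1 and Mtor differences are small enough for their direction to depend on that scaling. Foxo3 was at 45.7 CPM in liver and 57.9 in the cerebellum, Foxo1 at 87.2 and 249 in the caudate putamen. Mtor was at 42.8 CPM in liver and 91.0 in the olfactory bulb. The sestrins were lower in liver than the brain mean. Sesn3 was at 32.7 ± 1.19 CPM (log2 difference -0.49) and Sesn1 at 39.2, 18.7, 23.3 and 35 CPM (log2 difference -1.56). Foxo6 had 0 counts in all 9 livers, which allows up to 0.159 CPM over the 4 AL livers together (3 counts), at least 38.3-fold lower than its AL brain mean of 6.09 CPM; its call was lost without AL mouse 63. Per kilobase of exon the liver order was Eif4ebp2 (47.0 CPM per kilobase), Deptor (44.9), Eif4ebp1 (35.1), Foxo1 (10.1), Sesn1 (7.29), Foxo3 (6.03), Mtor (4.24), Sesn3 (2.14) and Foxo4 (1.6), an order that differed from brain, where Sesn1 was first.

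With dietary restriction, no member passed the test across the brain, in any single region or in liver. The nearest to it across the brain was Sesn1, higher in the restricted mice by 0.13 on the log2 scale. In liver Foxo1 was 0.50 higher and Sesn3 0.51 lower, with no overlap between groups for either gene and adjusted p above 0.05 for both. The comparison asks whether restriction begun in old animals alters these nutrient-sensing genes. Across the brain each mouse was reduced to 1 value, its term in a fit of log2 CPM on region and mouse, and the 2 groups of mouse values were tested with limma.

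Sesn1 mouse values were 6.72, 6.64, 6.6, 6.6 and 6.69 log2 CPM in the 5 aDR mice and 6.53, 6.46, 6.58 and 6.51 in the 4 AL mice. Every restricted mouse was above every AL mouse, and 8.3% of all genes tested had mouse values that did not overlap between the groups. The difference was 0.13 (SE 0.037, 95% confidence interval 0.044 to 0.213, limma adjusted p = 0.148), and 0.922% of the 15616 genes tested were called, with 16.1% at an unadjusted p under 0.05. Sesn1 was higher in 14 of 15 regions, with unadjusted p under 0.05 in 5. It passed in 2 alternative fits of the same libraries, a voom fit with the mouse as a block (adjusted p = 0.00344) and an edgeR fit without that block (adjusted p = 6.04e-05), which treats the regions of 1 mouse as separate samples. Those fits called 9.44% and 16.2% of all genes, and Sesn1 was the 1 member of 10 that each called. The other 9 members had limma adjusted p of 0.315 to 0.984. Foxo1 was 0.12 higher, Foxo3 0.064 higher, Foxo6 0.17 higher and Foxo4 0.18 lower, with overlapping mouse values. Mtor differed by 0.033, Deptor by -0.034, Eif4ebp1 by 0.0069 and Sesn3 by -0.040. Eif4ebp2 differed by -0.043 and was lower in 13 of 15 regions, with mouse values of 4.14 to 4.30 in aDR and 4.21 to 4.31 in AL mice. For Mtor the 95% confidence interval was -0.048 to 0.113. That range is for the mean over regions and sets no limit for a single region, where Mtor differed by -0.19 to 0.25.

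**Figure D2:**
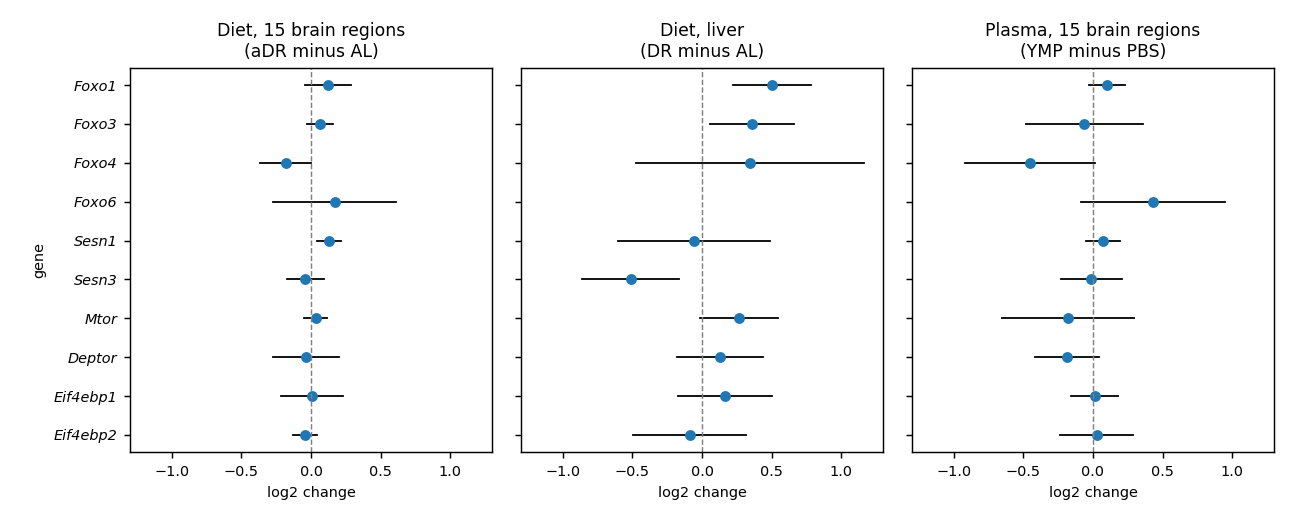
Log2 change of each member with its 95% confidence interval for dietary restriction across the brain (5 aDR against 4 AL mice), dietary restriction in liver (5 DR against 4 AL) and young plasma across the brain (3 YMP against 4 PBS); the line at 0 marks no change. The Sesn1 interval across the brain under restriction, 0.044 to 0.213, and the liver intervals of Foxo1, Foxo3 and Sesn3 lie away from 0 before adjustment over all genes.

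Within single regions the diet gave 133 member tests in brain, of which edgeR's quasi-likelihood test called 0, and it called 0.0525% of all gene tests in the 15 regions. Of the member tests 11 had an unadjusted p under 0.05 (8.27%, against 6.24% of all gene tests in the 15 regions). DESeq2 called 2 of its 140 member tests and 0.222% of all its gene tests. The groups did not overlap in 8 tests (6.02%, against 3.07% of all gene tests). Of the 8, 3 were Foxo1, 2 Sesn1, 2 Mtor and 1 Deptor, and all but Deptor were higher in the restricted mice.

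In the cerebellum, Foxo1 was at 85.3, 70.2, 64.2, 66.1 and 87.9 CPM in aDR mice and 58.5, 52.6, 60.7 and 58.6 CPM in AL mice, a log2 difference of 0.37 (SE 0.098, edgeR adjusted p = 0.160). In the visual cortex it was at 39.9, 34.9, 41.9, 34.7 and 37.9 against 29.7, 27.9, 34.1 and 24.2 CPM, 0.40 higher (SE 0.097, edgeR adjusted p = 0.128). In these regions 4.53% and 3.21% of genes did not overlap between groups. The lowest restricted library was just above the highest AL library in both, and DESeq2 called the cerebellar difference (adjusted p = 0.0436). In the entorhinal cortex, where 4.15% of genes did not overlap, Foxo1 was at 59.9 to 86.3 CPM (median 62.8) against 56.6, 57.8 and 59.7 CPM. In the caudate putamen, where Foxo1 is most abundant, it was lower in aDR mice (210 ± 43.5 against 249 ± 40.8 CPM, log2 -0.24, edgeR adjusted p = 0.643) and the groups overlapped.

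Sesn1 in the posterior hippocampus was at 152, 131, 156, 122 and 140 CPM in aDR mice and at 114, 103, 120 and 103 CPM in AL mice, 0.36 higher (SE 0.087, unadjusted p = 0.00166, adjusted p = 0.9996 in edgeR). In that region 1.7% of genes had groups that did not overlap. In the choroid plexus (1.56% of genes) it was at 66.9, 70.2, 77.3, 65.9 and 82.8 against 62.0, 59.1, 65.0 and 64.8 CPM. In the visual cortex Sesn1 was 0.28 higher (141 ± 12 against 117 ± 15.5 CPM, edgeR adjusted p = 0.242) and the groups overlapped.

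Mtor in the olfactory bulb, its peak region, was at 117, 97.5, 115, 109 and 105 CPM in aDR mice and 84.8, 91.9, 93.0 and 94.2 CPM in AL mice, 0.25 higher (SE 0.062, unadjusted p = 0.00158, adjusted p = 0.160 in edgeR; DESeq2 adjusted p = 0.0409). Deptor in the same libraries was at 88.1, 87.9, 91.2, 79.1 and 91.9 CPM against 94.3, 102, 94.0 and 97.4 CPM, a log2 difference of -0.14 (edgeR adjusted p = 0.277), so Mtor was above and its inhibitor below the AL range in every restricted olfactory bulb. In that region 5.3% of genes did not overlap between groups. In the visual cortex Mtor was at 33.4 to 37.3 CPM in aDR mice (median 36.5) against 30.3 to 32.9 CPM in AL mice, 0.17 higher (edgeR adjusted p = 0.499). Whether any member's diet difference varied between regions was tested in 1 model over all brain libraries, and edgeR called 0 of the 10 members, with 0 at an unadjusted p under 0.05 and an adjusted p of 1 for each. Of all genes 0.0128% were called and 2.14% had such an unadjusted p.

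**Figure D3:**
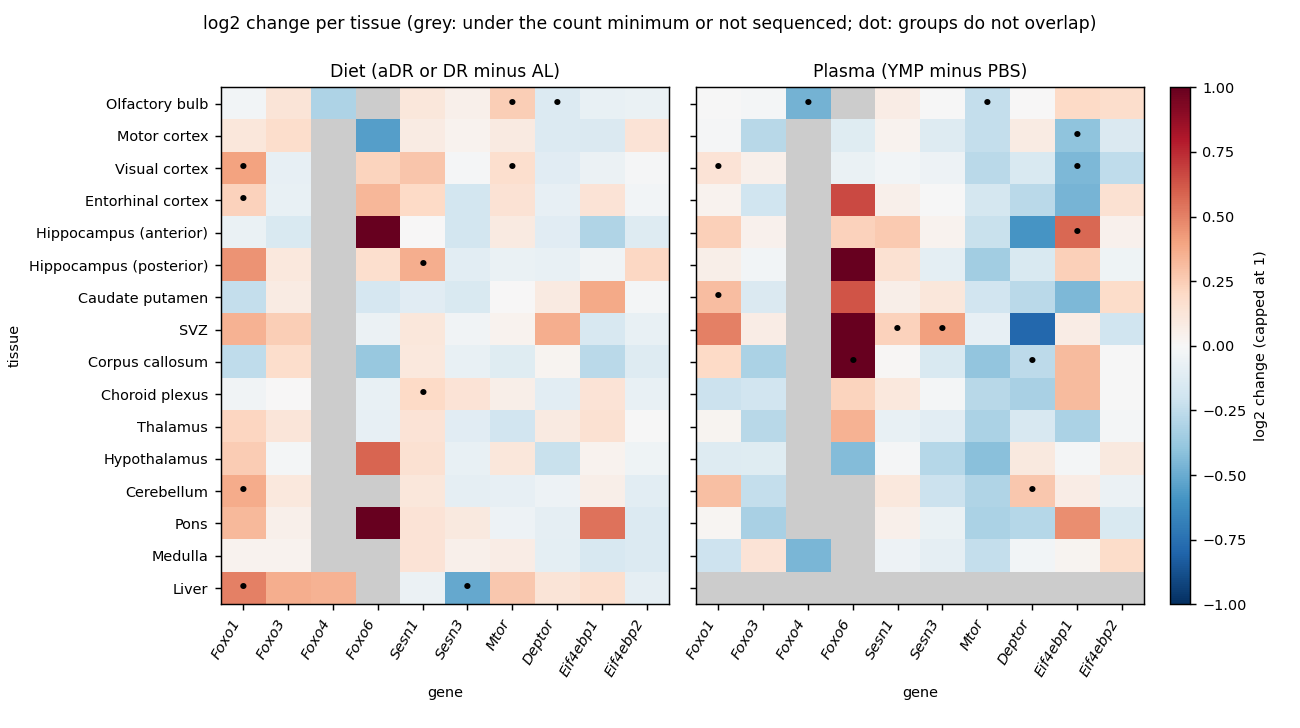
Log2 change of each member in each tissue, for dietary restriction (15 brain regions and liver) and for young plasma (15 brain regions). Colour gives the change and a dot marks groups whose libraries did not overlap. Grey marks genes too low to test and the liver row under plasma, where liver was not sequenced. The dots for diet fall on Foxo1, Sesn1, Sesn3, Mtor and Deptor, and Mtor is lower in YMP in all 15 regions, with PBS mouse 84 included.

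In liver, edgeR's quasi-likelihood test called 0 of 9 members tested, where 0.22% of all genes were called; 3 members had an unadjusted p under 0.05, against 9.09% of all genes. DESeq2 called 1 member and 1.65% of all genes. Foxo1, which in liver drives genes of glucose production, was at 116, 116, 125, 104 and 146 CPM in the 5 DR livers and at 94.3, 88.1, 79.6 and 86.5 CPM in the 4 AL livers. The log2 difference was 0.50 (SE 0.127, unadjusted p = 0.00224, adjusted p = 0.157 in edgeR), and DESeq2 called it with the same difference (adjusted p = 0.00849). Sesn3 was at 26.4, 21.6, 20.6, 26.5 and 18 CPM in DR livers and at 31.7, 34.3, 32.9 and 31.8 CPM in AL livers, a log2 difference of -0.51 (SE 0.158, unadjusted p = 0.00761, adjusted p = 0.277 in edgeR). Neither gene's groups overlapped, as for 4.04% of all genes. Foxo3 was at 52.2, 64.9, 61.0, 50.03 and 59.7 CPM against 47.5, 41.7, 52.3 and 41.1 CPM, 0.36 higher with overlap (edgeR adjusted p = 0.420). Mtor was 0.27 higher (50.7 ± 5.91 against 42.8 ± 1.69 CPM, adjusted p = 0.573 in edgeR).

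The remaining liver members differed by less than their spread. Deptor was at 428 ± 53.5 CPM in DR and 398 ± 37.9 CPM in AL livers, Eif4ebp1 at 85.0 ± 15.2 and 77.1 ± 9.09, Eif4ebp2 at 252 ± 49.6 and 272 ± 43.3, Sesn1 at 27.5 ± 6.85 and 29.0 ± 9.65, and Foxo4 at 6.90 ± 3.28 and 5.56 ± 1.52 (SD, n = 5 and n = 4). Endothelial markers summed to 347 to 464 CPM in DR and 234 to 345 CPM in AL livers without overlap. Most of the AL sum was Slco1a4, at 233 CPM in AL liver against 61.3 CPM in the medulla, its next highest tissue. The sum therefore cannot be read as endothelial content alone. Blood markers summed to 110 to 176 CPM in DR and 177 to 388 CPM in AL livers. The part of these markers in the Foxo1 and Sesn3 differences was not tested. Setting liver against brain in the same mice, the diet difference of Foxo1 was 0.37 larger in liver (unadjusted p = 0.0259, limma adjusted p = 0.521) and that of Sesn3 -0.47 (unadjusted p = 0.0337, limma adjusted p = 0.563). These were the 2 members of 9 with an unadjusted p under 0.05, limma called 0, and of all genes 0.0881% were called and 8.03% had such an unadjusted p. An edgeR fit of that difference on summed brain counts, without the mouse as a block, also called neither Foxo1 nor Sesn3.

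**Figure D4:**
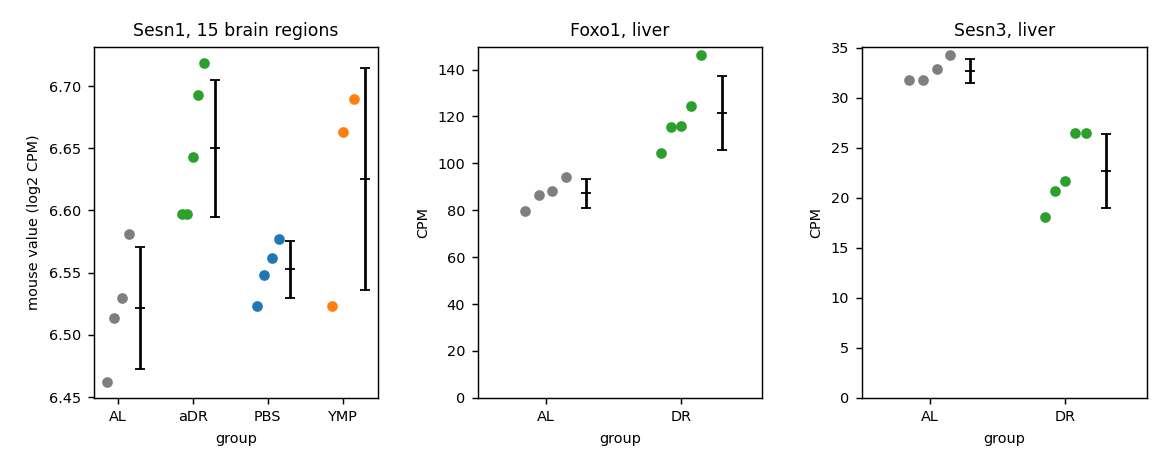
Sesn1 mouse values across the brain (log2 CPM) in the AL, aDR, PBS and YMP mice, and Foxo1 and Sesn3 levels (CPM) in AL and DR livers; each point is 1 mouse and bars give the mean and SD. The 5 restricted mice lie at 6.6 to 6.72 for brain Sesn1 against 6.46 to 6.58 in AL mice, and liver Foxo1 is above and liver Sesn3 below the AL range in all 5 DR mice.

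Young plasma left no member past the test across the brain or in a single region. The largest differences across the brain were Foxo4 (log2 -0.45) and Foxo6 (0.43), both low genes, then Deptor (-0.19) and Mtor (-0.18). Single mice moved both low genes: Foxo4 was at -0.24 without YMP mouse 73, and Foxo6 at 0.26 without YMP mouse 77 and 0.27 without PBS mouse 84, and leaving out each mouse in turn gave -0.58 to -0.24 and 0.26 to 0.61. Mtor was lower in YMP in 15 of 15 regions, and its difference across the brain turned to 0.018 without 1 control mouse. Across the brain limma called 0 of 10 members and 0% of the 15768 genes tested; 0 members had an unadjusted p under 0.05, against 8.09% of all genes, and alternatives differed: an edgeR fit without the mouse block called 2 members (Foxo6 and Mtor) and 13.4% of all genes, and a voom fit with the block called 0 members and 3.08% of all genes. The limma adjusted p of the members ran from 0.628 to 0.980, and no member's mouse values were apart between groups, against 10.1% of all genes.

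PBS mouse 84 had more Mtor RNA than any other mouse. Its Mtor levels in the 14 regions other than the olfactory bulb were 48.9 to 66.9 CPM, above all 199 other brain libraries of those regions in both experiments, which were at 22.8 to 44.4 CPM. In the olfactory bulb it was at 100 CPM and within the range of the other mice. Its Mtor mouse value was 5.96 log2 CPM against 5.13 to 5.17 in the other 3 PBS mice and 5.14 to 5.19 in the YMP mice. Foxo3 was above every other library of the region in 11 regions of this mouse, Eif4ebp2 in 10, Sesn3 in 8 and Foxo4 in 5, while Foxo6 was below every other library in 3. Deptor, which like Mtor was highest in the olfactory bulb in AL mice, was above every other library in 0 regions and below in 1. It exceeded the mean of the other PBS mice in 4 of 15 regions. The libraries of mouse 84 had a median depth of 8.76 M counts and a median mitochondrial share of 2.39%, against medians of 2.16% to 2.41% in the other 3 PBS mice. In all, 188 of 10865 genes, Mtor among them, exceeded every other plasma mouse by over 0.5 on the log2 scale in mouse 84, against 0 to 16 such genes in each other mouse, and 76.1% of the 188 were higher in the olfactory bulb of AL mice, against 17.9% of all genes. Of the 16 such genes of PBS mouse 72, 9 were also higher in the olfactory bulb, so a share above that of all genes was not found in mouse 84 alone. What set this mouse apart was not tested.

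**Figure D5:**
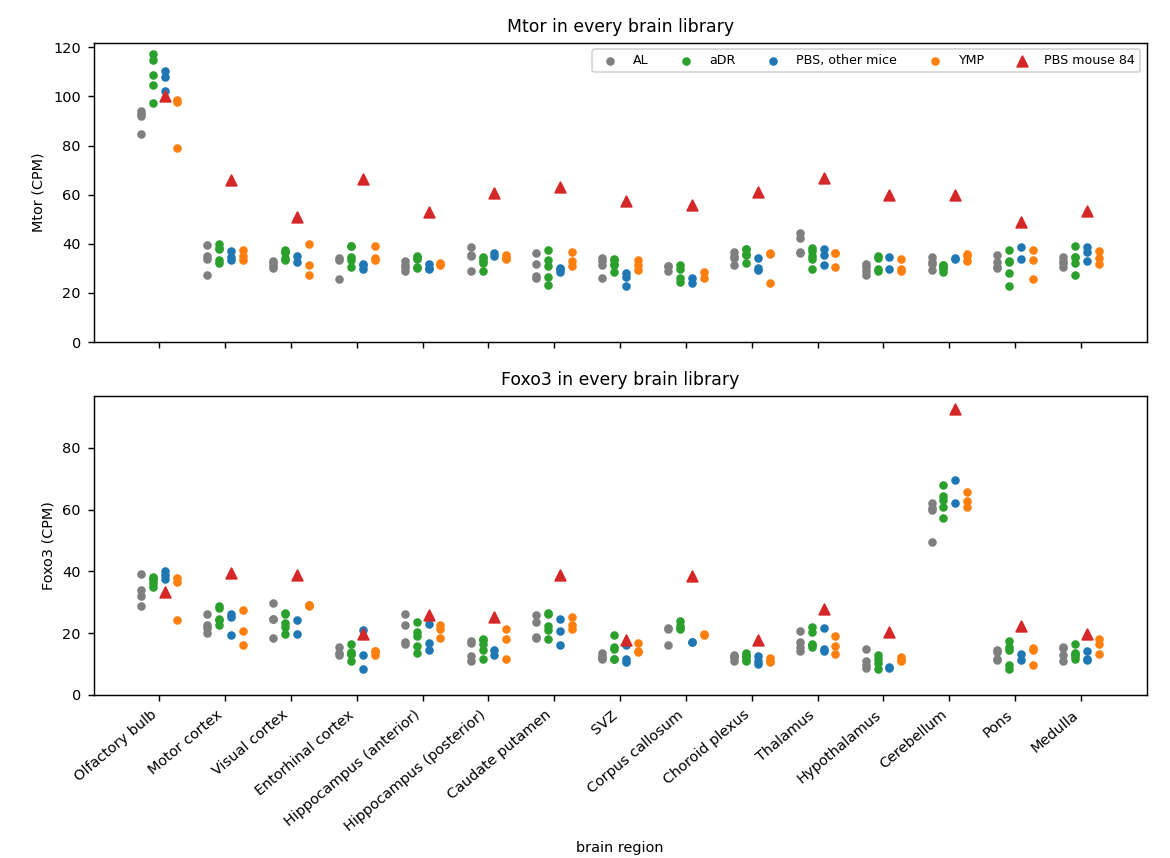
Mtor and Foxo3 level (CPM) in every brain library, by region, with the 4 treatment groups in colour and PBS mouse 84 as red triangles. In 14 regions the triangle for Mtor lies above all other libraries, at 48.9 to 66.9 CPM, while in the olfactory bulb it lies among them.

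Without mouse 84 the plasma differences across the brain were 0.018 for Mtor, 0.11 for Foxo3, 0.13 for Eif4ebp2 and 0.062 for Sesn3, each of the other sign or larger than with it (-0.18, -0.063, 0.028 and -0.012). None of these passed limma's test without that mouse (adjusted p of 0.328 to 0.851). Sesn1 differed by 0.073 between YMP and PBS mice (limma adjusted p = 0.741), with mouse values of 6.52, 6.69 and 6.66 in YMP and 6.55, 6.52, 6.56 and 6.58 in PBS mice. Foxo1 differed by 0.10 and Eif4ebp1 by 0.012. The diet difference minus the plasma difference was called for 0 of 10 members by limma, with 0 at an unadjusted p under 0.05 and adjusted p of 0.655 to 0.994, where 0.174% of all genes were called and 12.3% had such an unadjusted p. For Sesn1 that difference was 0.056 (95% confidence interval -0.072 to 0.184), so the data do not separate the 2 treatments for it.

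In single regions the plasma experiment gave 133 member tests, of which edgeR's quasi-likelihood test called 0, and it called 0.0127% of all gene tests. Of the member tests 7 had an unadjusted p under 0.05 (5.26%, against 6.11% of all gene tests) and the groups of 12 did not overlap (9.02%, against 9.34%). DESeq2 also called 0 members, with 0.373% of all its gene tests called. In the olfactory bulb Mtor was at 98.5, 97.9 and 79.2 CPM in YMP mice and 102, 108, 110 and 100 CPM in PBS mice, a log2 difference of -0.24 (edgeR adjusted p = 0.464), where 7.75% of genes did not overlap. The first YMP value is that of mouse 73, whose olfactory bulb library held only 0.606 M counts. The olfactory bulb is the region compared here. It is a region in which mouse 84 was not high, but the Mtor difference moved with single YMP mice. The difference was -0.34 and called without YMP mouse 77 (edgeR adjusted p = 0.0453), and -0.095 and not called without YMP mouse 81. The diet difference of Mtor in that region had the other sign.

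Foxo1 in the caudate putamen was at 268, 260 and 262 CPM in YMP mice and 204, 165, 221 and 248 CPM in PBS mice, 0.31 higher (edgeR adjusted p = 0.476), where 12.3% of genes did not overlap. Striatal markers in the same libraries summed to 5139, 5122 and 4454 CPM in YMP and 4197, 2809, 4228 and 4285 CPM in PBS mice, also without overlap. The part of striatal content in this Foxo1 difference was not tested. In the SVZ, with 14.6% of genes not overlapping, Sesn3 was at 82.8, 93.7 and 82.6 against 69.0, 50.1, 61.2 and 74.2 CPM (0.41 higher, edgeR adjusted p = 0.287) and Sesn1 at 96.9, 115 and 113 against 91.3, 92.7, 88.3 and 89.4 CPM (0.23 higher, edgeR adjusted p = 0.332). The same SVZ libraries differed in choroid plexus markers, at 30.2 to 54.6 CPM in YMP and 2714 to 19209 CPM in PBS mice. In the corpus callosum 24.8% of genes did not overlap. These choroid plexus markers were there at 9.21 to 22.4 CPM in YMP and 5211 to 18545 CPM in PBS mice. Foxo6 there was at 20.2 and 16 against 10.9, 10.6 and 2.74 CPM, the last in PBS mouse 84. Striatal markers in the corpus callosum were at 3428 and 2625 CPM in YMP and 1474, 2230 and 3056 CPM in PBS mice, with overlap. In the SVZ they were at 2071, 2810 and 1142 CPM in YMP and 2849, 1056, 970 and 890 CPM in PBS mice, with overlap. The part of choroid plexus or striatal tissue in the SVZ and corpus callosum values was not tested.

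Eif4ebp1 was apart in 3 regions, with both signs. It was 0.58 higher in the anterior hippocampus (6.70, 5.62 and 5.13 CPM in YMP against 2.36, 5.12, 4.87 and 3.95 in PBS mice), 0.40 lower in the motor cortex (5.64, 7.03 and 6.32 against 10.5, 8.75, 7.33 and 7.46 CPM) and 0.45 lower in the visual cortex (9.95, 7.26 and 8.04 against 10.4, 11 and 12.8 CPM). The shares of genes that did not overlap in these regions were 6.15%, 4.97% and 7.34%. In the test of whether the plasma difference varied between regions, edgeR called 0 of the 10 members and 0.786% of all genes. With an unadjusted p under 0.05 there was 1 member, Eif4ebp1 (edgeR adjusted p = 0.503), against 7.62% of all genes. Deptor in the cerebellum was at 25.1, 26.5 and 28.0 CPM in YMP and 20.2, 22.3 and 23.7 CPM in PBS mice (0.27 higher, edgeR adjusted p = 0.455), where 16.3% of genes did not overlap. In the corpus callosum Deptor was at 38.4 and 33.9 against 45.9, 38.9 and 40.3 CPM. The remaining 2 were Foxo1 in the visual cortex, at 33.0, 34.3 and 33.7 against 31.9, 31.5 and 28.8 CPM, and Foxo4 in the olfactory bulb, at 0, 1.3 and 1.04 against 1.68, 1.33, 1.53 and 1.54 CPM. The 0 is that of YMP mouse 73, whose olfactory bulb library, at 0.606 M counts, was the shallowest of the series. At that depth the 0 does not set this library apart from levels such as 1.04 CPM.

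The wider pathways were read from 7 lists of 135 genes. Across the brain under dietary restriction 1 of 26 FoxO target genes tested was called, Klf15, and 1 of 9 mTOR complex subunit genes, Prr5, both higher. None was called among 27 genes of amino acid sensing by Rag GTPases and GATOR, 18 of autophagy and lysosome regulation, 28 of the kinases and cofactors upstream of FoxO, 17 of translation and 14 of TSC, Rheb and stress input, with limma, where 0.922% of all genes were called. List medians lay between -0.017 and 0.040 on the log2 scale against -0.0062 for all genes, with the FoxO targets at 0.040. Above 0 were 17 of 26 FoxO targets, 17 of 27 amino acid sensing genes and 9 of 14 TSC and Rheb genes. The count was 3 of 9 for mTOR complex subunit genes and 7280 of 15616 for all genes tested. In liver under restriction none of the 7 lists had a called gene, where 0.22% of all genes were called. In brain under young plasma none had one either, where 0% of the 15768 genes tested were called. Those empty counts are therefore not a result about the lists. Liver list medians ran from 0.012 to 0.14 against 0.018 for all genes, and plasma medians from 0.0062 to 0.046 against -0.0037.

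Klf15, a transcription factor induced by fasting and glucocorticoids, had mouse values of 5.80, 5.66, 5.6, 5.59 and 5.66 log2 CPM in aDR mice, against 5.21 to 5.34 in AL mice. It rose by 0.38 (SE 0.049, limma adjusted p = 0.0163) and was higher in 15 of 15 regions. Under young plasma it was also higher in 15 of 15 regions, with mouse values of 5.28 to 5.64 against 5.11 to 5.27, a difference of 0.29 that did not pass (limma adjusted p = 0.501). Prr5, which encodes a subunit of mTOR complex 2, rose by 0.34 in aDR brain (SE 0.055, limma adjusted p = 0.0323), with mouse values of 3.59 to 3.82 against 3.33 to 3.46, and differed by 0.29 under plasma (limma adjusted p = 0.604). The genes next in order of p missed the threshold. Flcn, whose product activates Rag GTPases, was 0.12 higher (limma adjusted p = 0.0506, 15 of 15 regions), and Depdc5, a GATOR1 subunit gene, was 0.11 lower (limma adjusted p = 0.127). Pik3ip1, an inhibitor of PI3-kinase, was 0.16 higher (limma adjusted p = 0.0656), and Sgk1, a glucocorticoid-responsive kinase that phosphorylates FoxO factors, was 0.62 higher (limma adjusted p = 0.129), both in 15 of 15 regions. Rptor, the scaffold of mTOR complex 1, differed by -0.07 (limma adjusted p = 0.274) and Sirt1, a deacetylase of FoxO factors, by 0.11 (limma adjusted p = 0.185). In the translation list Eif4a1 differed by 0.10 and Eif4g2 by -0.09, in the autophagy list Ulk2 by -0.07 and Tfe3 by 0.09, and in the TSC and Rheb list the AMPK subunit genes Prkab1 by 0.11 and Prkag1 by 0.06.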

How the data were processed

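RNA of dissected tissue was turned into Smart-Seq2 and Nextera XT libraries, which keep no strand, and the authors deposited whole-number read counts per gene, not normalized. Per the submitters' processing notes, Trim Galore 0.3.7, STAR 2.5.3a and the mouse assembly GRCm 38 were used; how reads shared by overlapping genes were counted is not given in the sources used here. The 537 rows without a count were left out. Tests ran on all genes that passed filterByExpr (minimum count 10, minimum total 15) with TMM scaling in edgeR 4.0.16 (quasi-likelihood) for single tissues and for levels, and in limma 3.58.1 on 1 log2 CPM value per mouse (prior count 2) across brain regions, in R 4.3.3; DESeq2 1.42.0 was an alternative. Adjusted p-values are Benjamini-Hochberg over all genes tested, with 0.05 as the threshold, and printed CPM use a single TMM scaling of all 238 libraries. Regions of 1 mouse share the mouse, and their deviations correlated at a mean r of 0.0391 within and -0.00483 between mice in the diet experiment and at 0.0860 and -0.0144 in the plasma experiment. No 2 replicate libraries agreed within sampling noise (lowest chi-square per degree of freedom 1.29 over 357 pairs). On simulated counts the fits found all 200 genes changed 2-fold, and 84% of them for a difference between regions. False calls were 17 of 185 there and 14 of 214 for plasma across the brain, above the 5% that the threshold implies. They were 6 to 8 of 206 to 208 in the other fits. The changed genes were drawn from well counted genes, with a fixed spread and no differences between mice. The simulation therefore does not measure how often smaller changes, or changes in low members, would be found.

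All 10 members were described, in full where a test passed or groups did not overlap; of each pathway list the called genes, or else the 2 with the smallest p, were named. Members and lists were chosen with earlier results of these data known, and 1 gene of the striatal marker list is not reported here and not in its sum. Coordinates and exon lengths are from GENCODE M21, matched by symbol for 20929 genes, and start windows are from RefSeq.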

Additional observations from a re-analysis of the deposited data

Results flagged for a closer look

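In 6 of 96 groups of 4 or more samples, 1 value lay far from the others relative to the range of its group; about 1 in 20 groups, or 4.8 here, would be picked out this way by chance. Of these 6, 4 were PBS mouse 84. Its Mtor mouse value across the brain was 5.96 log2 CPM, against 5.13 to 5.17 in the other 3 PBS mice. Its SVZ library held 57.3 CPM of Mtor, against 22.8 to 28.2 CPM. Its Foxo6 mouse value was 1.0 log2 CPM, against 1.61 to 1.70, and its motor cortex held 1.49 CPM of Foxo4, against 0.438 to 0.615 CPM. The other two were the Deptor mouse value of aDR mouse 64, at 4.97 log2 CPM against 5.28 to 5.38 in the other aDR mice, and Foxo6 in the cerebellum of AL mouse 63, at 0.233 CPM against 0 in the other 3 AL mice, a difference of 3 counts. The pons library of aDR mouse 64 was also the aDR pons library lowest in hindbrain markers; its part in the Deptor value was not tested.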

How the results depend on the processing

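Dietary restriction across the brain went from 0 to 1 called member, Sesn1, in a voom fit with the mouse as a replicate block and in an edgeR fit with no replicate block; in liver from 0 to 1 with DESeq2 (Foxo1); within regions from 0 to 2 with DESeq2 (Foxo1 in the cerebellum, Mtor in the olfactory bulb) and to 1 with no filter on low counts (Foxo1 in the visual cortex, edgeR adjusted p = 0.0468, with 0.0675% of all gene tests called). Young plasma across the brain went from 0 to 2 in edgeR with no replicate block (Foxo6 0.50, adjusted p = 0.0335, and Mtor -0.25, adjusted p = 0.0114), and within regions the count ran from 0 to 1 when each mouse was left out. The cause was not tested. Eif4ebp1, close to 0 in both experiments, turned sign: under diet to -0.0092 without libraries under 2 M counts and the pons library of aDR mouse 67, and to -0.021 in the voom block fit; under plasma to -0.024 without choroid plexus and corpus callosum, -0.0057 without the 3 pons libraries low in hindbrain markers, -0.019 without the olfactory bulb, -0.0083 without libraries under 2 M counts and -0.057 in the voom block fit, where Sesn3 also turned, to 0.0041. Leaving out 1 mouse at a time turned Deptor (-0.12 to 0.040) and Eif4ebp1 (-0.050 to 0.069) under diet, Eif4ebp2 (-0.17 to 0.021) and Sesn1 (-0.22 to 0.11) in liver, Eif4ebp1 (-0.028 to 0.091), Eif4ebp2 (-0.024 to 0.13), Foxo3 (-0.16 to 0.11), Mtor (-0.25 to 0.018) and Sesn3 (-0.075 to 0.062) under plasma, and the diet minus plasma difference of Foxo1 (-0.022 to 0.057). With the mouse as a block the regional calls went from 82 to 87 in AL and from 65 to 77 in PBS mice, and the block changed no other call. Foxo4 in the PBS olfactory bulb fell short in YMP mice (1.08, edgeR adjusted p = 0.121). The alternatives without olfactory bulb, without shallow libraries and without the named pons libraries were chosen after seeing the data. Foxo4 and Foxo6, at a few counts per library in many regions, are limited by depth.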
